A study of Mus musculus with 24 samples.

Results

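The 39 genes described here encode structural and assembly proteins of the sarcomere other than the myosins, actins and troponins. They were taken by symbol from a table of 56941 annotated mouse genes, and each of the 39 symbols was found. They comprise titin and the nebulins (Ttn, Neb, Nebl), the thick filament and M-band proteins (Mybpc1, Mybpc2, Mybpc3, Mybph, Myom1, Myom2, Myom3, Obsl1), 15 Z-disc proteins (Myoz1, Myoz2, Myoz3, Ldb3, Myot, Tcap, Csrp3, Ankrd2, Ankrd23, Pdlim3, Pdlim5, Pdlim7, Synpo2, Synpo2l, Flnc), the Xin proteins (Xirp1, Xirp2), 6 proteins of the thin filament and its ends (Lmod2, Lmod3, Tmod1, Tmod4, Klhl40, Klhl41), the myosin assembly factors Unc45b and Smyd1, and the tropomyosins Tpm1, Tpm2 and Tpm3. A filter on low counts kept 13318 genes, among them 36 of the 39. Nebl, Mybpc3 and Myoz3 did not pass it, were not tested and are given as levels only.

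RNA came from muscle sheets of C2C12, an established mouse myoblast line, that carried ChR2::tdTomato, a light-gated cation channel joined to a red fluorescent protein. Myoblasts were seeded on grooved fibrin hydrogel and kept for about 2 weeks in medium with horse serum and IGF-1, in which they fuse into contractile fibers. The 4 conditions were an unstimulated control and daily blue light for 30 min at 1 Hz, 4 Hz or 10 Hz, with 6 libraries each, and the control sheets carried the same channel. All 24 libraries derive from 1 engineered line, the sheets also contract on their own without light, and the sheets hold no nerve, vessel or other tissue, so the data describe this cultured line and not adult muscle.

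The sarcomere is the repeating contractile unit of striated muscle, bounded by Z-discs that anchor the thin actin filaments and centered on the M-band, where thick myosin filaments are crosslinked. Titin spans from Z-disc to M-band and acts as template and spring, nebulin runs along the thin filament, myosin binding proteins decorate the thick filament, and tropomyosin lies along actin and gates its access to myosin. Many Z-disc proteins have a further role in sensing load: Csrp3, Ankrd2 and Tcap are known as parts of a stretch-sensing complex on titin, and the myozenins tether the phosphatase calcineurin.

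Depth was 4.09 to 15.2 M estimated counts per library, and it was higher at 4 Hz than in control (difference of means 3.45 M, 2-sided exact permutation p = 0.00433). Among the 60 pairs of libraries within a condition, the lowest chi-square per gene was 3.16, above the value near 1 that repeated sequencing of 1 library would give, so each library was counted once. The replicates are described as biological replicates of 1 line, so p-values measure the spread between sheets of that line. The labels further state that low-input samples were prepared by ribosomal RNA depletion in place of poly(A) selection and do not name them. A list of small noncoding RNAs that carry no poly(A) tail (22 of 23 names found, under 25 gene identifiers that were all counted) was summed in CPM (counts scaled to an equal total in each library) and lay between 99.2 and 170.2 CPM in control, 15.1 to 70.2 at 1 Hz, 18.2 to 51.1 at 4 Hz and 38.4 to 273 at 10 Hz. No library at 1 Hz or 4 Hz overlapped the control range of that list (exact permutation p = 0.00216 each, the smallest that 6 against 6 allows). The list moved with condition, and a fit that takes it into account is given with the counts of calls. The mitochondrial share of counts was also lower at 1 Hz, 1.88% ± 0.369 against 2.60% ± 0.441 in control (exact permutation p = 0.013, adjusted p = 0.0292 over the composition tests), and its part in the 1 Hz differences was not tested.

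In unstimulated sheets Tpm1 and Tpm2 stood highest among the members, and Nebl, Mybpc3 and Myoz3 stood lowest. Levels between genes are compared in TPM, which divides counts by transcript length and scales each library to the same total. Tpm1 stood highest at 1441 ± 63.7 TPM (SD, n = 6), followed by Tpm2 at 1060.1 ± 56.8, and Tpm1 exceeded Tpm2 in every control library. Mybph, a thick filament protein related to the myosin binding proteins C, was next at 457 ± 77.2 TPM. Tpm3 (295 ± 27.4), Ankrd2 (250.5 ± 40.9) and Klhl41 (212 ± 17.0) followed in that order, and the ranges of Tpm3 and Ankrd2, and of Ankrd2 and Klhl41, overlapped. Neb stood at 147 ± 4.16 TPM and Ttn at 45.9 ± 2.15 TPM, although by mean CPM, which does not divide by length, Ttn came after Tpm1 and Tpm2 alone. At the low end, Tmod4 was at 2.43 ± 1.23 TPM, Nebl at 1.15 ± 0.88, Mybpc3 at 0.132 ± 0.0905 and Myoz3 at 0.0512 ± 0.0564. Nebl (nebulette) and Mybpc3 are the cardiac members of their families, and both stood far below Neb and Mybpc1 per length.

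Sequence upstream of the genes is shown for 6 members, so that windows of members that changed at 4 Hz and of members that did not pass can be set side by side. Among the windows that could be printed, these are the 4 members with the largest 4 Hz difference and the 2 with the smallest difference among those not called. Each window is the 250 bases before the start of the canonical transcript in GRCm39 (GENCODE M39), read 5′ to 3′ on the strand of the gene. The 22 windows that hold an exon of any annotated transcript, Tmod4 among them, were not printed, and neither was that of Myot. Capitals mark matches of 5 motifs on either strand. They are the E-box with the letters CAGCTG, the muscle CAT (MCAT) element with the letters CATTCC, the TATA box with the letters TATAAA, and by name the MEF2 and CArG elements. Every CAGCTG is also a CANNTG, the general E-box, which was counted without capitals, and MEF2 and TATA matches can overlap.
Csrp3, chr7:48497902-48498151, - strand: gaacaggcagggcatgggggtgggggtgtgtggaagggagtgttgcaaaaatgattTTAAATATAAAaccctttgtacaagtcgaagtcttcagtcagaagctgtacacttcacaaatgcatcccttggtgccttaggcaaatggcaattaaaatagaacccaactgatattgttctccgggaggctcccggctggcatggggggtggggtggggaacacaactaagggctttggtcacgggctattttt
Mybph, chr1:134120921-134121170, + strand: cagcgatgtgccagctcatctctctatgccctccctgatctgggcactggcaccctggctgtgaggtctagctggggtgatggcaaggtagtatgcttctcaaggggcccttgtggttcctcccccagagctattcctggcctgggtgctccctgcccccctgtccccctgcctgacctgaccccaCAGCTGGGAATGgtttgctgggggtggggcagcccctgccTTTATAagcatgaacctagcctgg
Ankrd2, chr19:42024024-42024273, + strand: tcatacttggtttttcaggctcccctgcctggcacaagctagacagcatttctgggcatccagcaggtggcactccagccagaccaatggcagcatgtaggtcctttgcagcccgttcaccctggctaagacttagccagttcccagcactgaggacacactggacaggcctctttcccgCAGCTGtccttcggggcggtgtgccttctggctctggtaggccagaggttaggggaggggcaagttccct
Tcap, chr11:98274387-98274636, + strand: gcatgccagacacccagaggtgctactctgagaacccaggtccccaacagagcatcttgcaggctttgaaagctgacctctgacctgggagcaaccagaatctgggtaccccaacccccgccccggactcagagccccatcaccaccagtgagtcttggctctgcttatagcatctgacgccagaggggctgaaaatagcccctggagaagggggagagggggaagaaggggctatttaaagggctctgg
Flnc, chr6:29432822-29433071, + strand: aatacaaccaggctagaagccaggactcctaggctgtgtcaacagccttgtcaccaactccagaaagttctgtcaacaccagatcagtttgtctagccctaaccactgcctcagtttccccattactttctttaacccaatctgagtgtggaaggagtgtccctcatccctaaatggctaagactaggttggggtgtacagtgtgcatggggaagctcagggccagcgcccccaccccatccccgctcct
Synpo2l, chr14:20718423-20718672, - strand: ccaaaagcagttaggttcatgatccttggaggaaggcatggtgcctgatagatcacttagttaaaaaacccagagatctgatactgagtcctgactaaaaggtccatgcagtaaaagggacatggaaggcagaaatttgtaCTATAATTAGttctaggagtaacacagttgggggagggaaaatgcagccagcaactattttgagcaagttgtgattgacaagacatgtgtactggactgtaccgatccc
Csrp3 (muscle LIM protein) held a MEF2 match starting 194 bases before the start and an overlapping TATAAA at 189 bases. Mybph held CAGCTG at 64 bases directly followed by the reverse of CATTCC at 58 bases, and the reverse of TATAAA at 24 bases. Ankrd2 held CAGCTG at 70 bases, Synpo2l held MEF2 at 109 bases, and the windows of Tcap and Flnc held none of the 5. Over all 39 members, MEF2 matched 10 windows against 2.34% of the windows of 13293 tested genes, CAGCTG 9 against 11.4%, CATTCC 6 against 11.8%, TATAAA 5 against 7.82% and CArG 1 (Myom1) against 1.16%. CANNTG was in 31 member windows against 60.2%. The 10 MEF2 matches were in Nebl, Mybpc3, Myom3, Myoz1, Csrp3, Synpo2, Synpo2l, Xirp2, Klhl40 and Klhl41: 4 of the 23 members called at 4 Hz held one, and 4 of the 13 tested members that were not called. The 5 TATAAA matches were in Mybph, Myom2, Csrp3, Synpo2 and Smyd1, all among the 23, at 24, 236, 189, 235 and 56 bases before the start. In the 23 and the 13, CAGCTG was in 6 and 2 windows, CATTCC in 4 and 2, CArG in 1 and 0 and CANNTG in 17 and 11. No motif was tested between the 23 and the 13. These are matches of letters in a window, not measured sites. Among them, the MEF2 windows of Nebl, Synpo2, Xirp2, Klhl40 and Klhl41 hold an annotated exon, as do the TATAAA windows of Myom2, Synpo2 and Smyd1. Nebl and Mybpc3 were not tested, whereas the 13293 windows set beside the members are of tested genes.

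The member genes were higher in sheets paced at 1 Hz and 4 Hz than in control and fewer of them passed at 10 Hz. A member was called where edgeR's quasi-likelihood test gave a Benjamini-Hochberg adjusted p, over all 13318 genes, below 0.05 and the log2 fold change passed 0.5 in size. At 1 Hz 21 of the 36 tested members were called higher, against 9.34% of all tested genes, at 4 Hz 23 were, against 10.5%, and at 10 Hz 4 were, against 1.24%. None was called lower in any of the 3 by edgeR, beside 8.99%, 9.61% and 0.623% of all genes (0 at an unadjusted p under 0.05 as well and 0 by DESeq2, with 1 at an unadjusted p by limma on TPM at 4 Hz). On adjusted p alone 31, 28 and 5 were higher at 1, 4 and 10 Hz, against 18.1%, 19.2% and 2.67%. The median log2 fold change over the 36 was 0.63 at 1 Hz, 0.67 at 4 Hz and 0.27 at 10 Hz, beside -0.01 over all tested genes each time. With the share of the small RNA list as a covariate these medians were 0.38, 0.44 and 0.19, and by limma on log2(TPM + 1) 0.54, 0.46 and 0.14. Without the filter the limma medians were 0.42, 0.42 and 0.10. By limma on log2(TPM + 1) the calls of Mybpc2 and Tmod1 at 1 Hz, of Myom1, Myom2, Myom3, Synpo2, Lmod3 and Tmod1 at 4 Hz and of Mybph, Ankrd2 and Pdlim3 at 10 Hz were lost. With scaling to total counts those of Mybpc2 and Tmod1 at 1 Hz, Pdlim5 and Synpo2 at 4 Hz and Pdlim3 at 10 Hz were lost. All 36 had a positive sign at 1 Hz and 4 Hz and 35 did at 10 Hz by edgeR, but by limma on TPM the sign was negative for Ttn and Pdlim7 at 1 Hz, for Ttn, Neb, Pdlim7, Flnc, Xirp1 and Xirp2 at 4 Hz and for 11 members, none of them called, besides Neb at 10 Hz. With scaling to total counts it was negative for Ttn, Myoz1 and Pdlim7 at 1 Hz, Xirp1 at 4 Hz and Mybpc2, Xirp2 and Lmod2, besides Neb, at 10 Hz. On the TPM scale at 4 Hz the median of all genes itself lay at -0.16. The 6 libraries lay wholly above the 6 control libraries for 23 members at 1 Hz (7.22% of tested genes), for 24 at 4 Hz (8.68%) and for 0 at 10 Hz (1.28%). The 3 comparisons share the 6 control libraries and are not independent of one another. In bulk RNA, more fiber in a sheet and more RNA per fiber cannot be told apart.

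**Figure D1:**
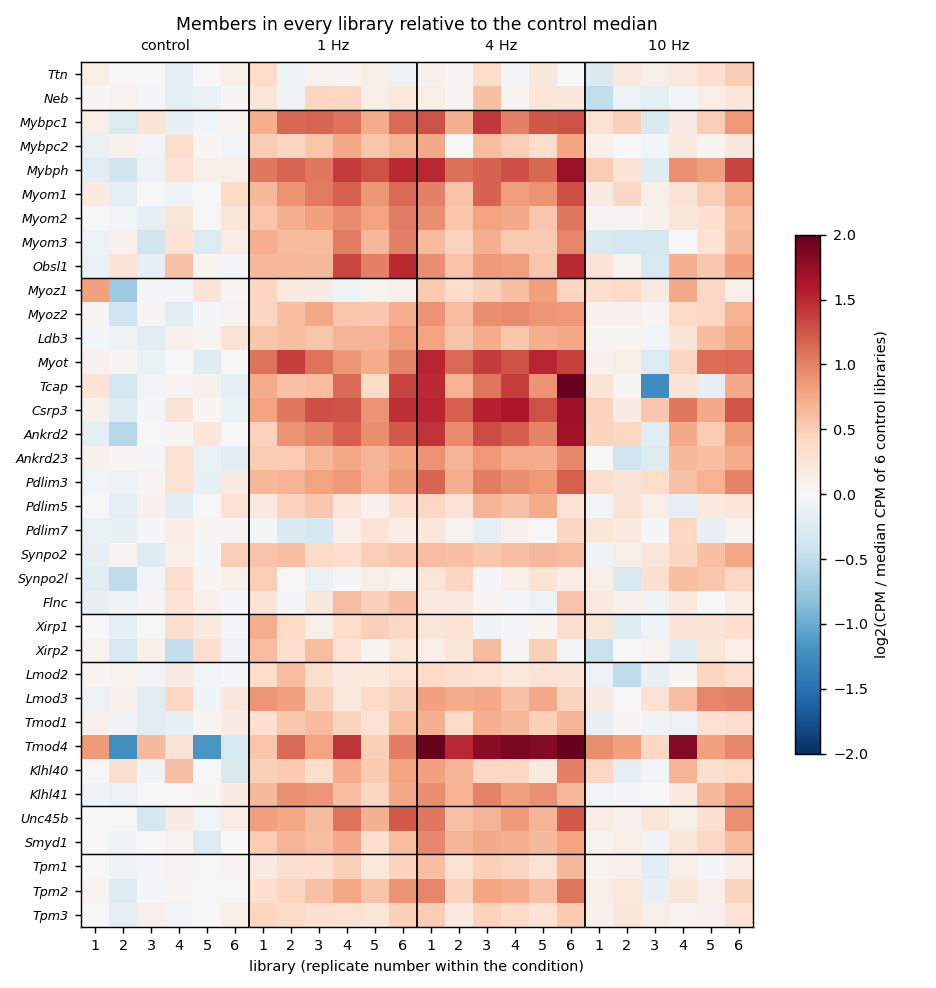
Heat map of the 36 tested members (rows, ordered by role) in the 24 libraries (columns, by condition and replicate number), as log2 of CPM over the median CPM of the 6 control libraries. The 1 Hz and 4 Hz blocks are higher in nearly every row below Neb, with library medians of 0.49 to 0.74 and 0.56 to 0.82, while the 10 Hz libraries range from -0.05 (replicate 3) to 0.64 (replicate 6).

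The count of calls at 1 Hz and 4 Hz changed when the small RNA list was taken into the fit. With the log2 share of the small RNA list as a covariate in edgeR, 0 of the 21 calls at 1 Hz remained (17 members had an unadjusted p under 0.05, and 1 of all 13318 genes was called). At 4 Hz 9 of the 23 did, beside 1.87% of all genes called in either direction. The covariate does not overlap between control and these conditions, so the condition and the composition of the libraries cannot be told apart in that fit.

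**Figure D2:**
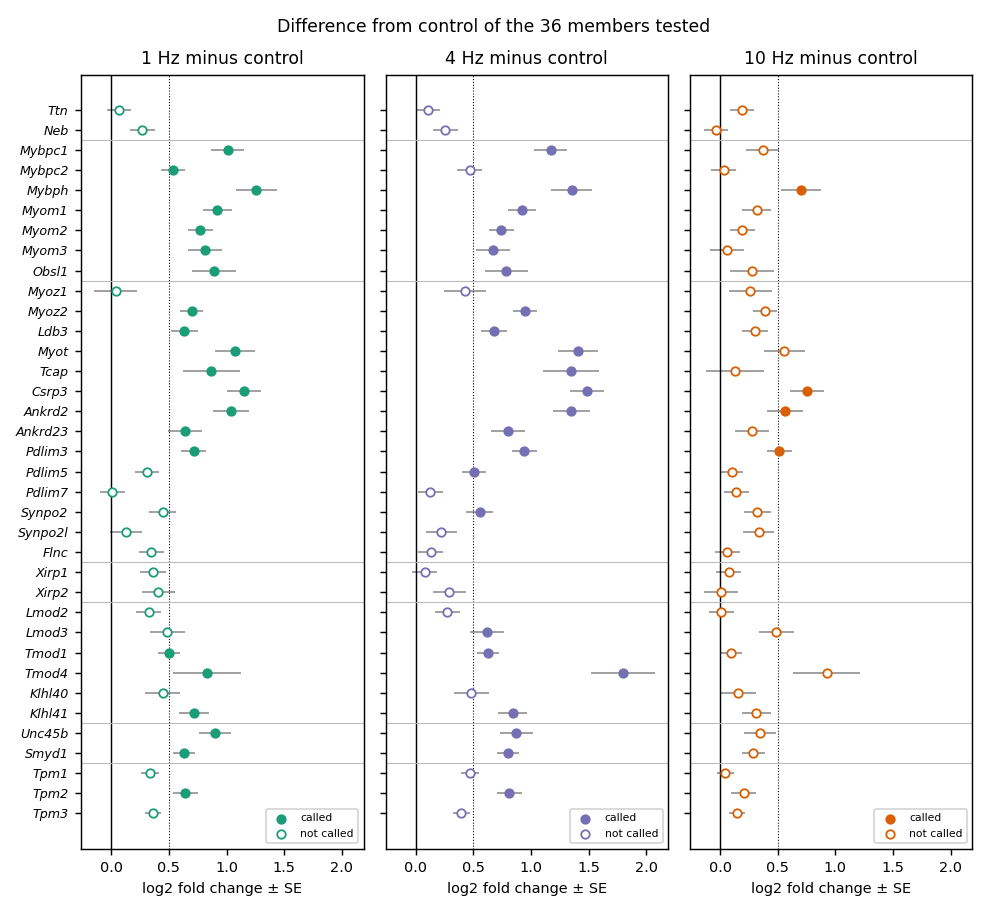
Log2 fold change against control (points) with its standard error (bars) for the 36 tested members, in 3 panels for 1 Hz, 4 Hz and 10 Hz. Filled points passed both limits of the call, the dotted line marks 0.5, and gray lines separate the roles. Filled points number 21, 23 and 4 in the 3 panels, with Tmod4 at 4 Hz the farthest right at 1.80.

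Titin and nebulin, the 2 giant proteins, were not called in any comparison with control. Ttn lies on chromosome 2 (GRCm39, 76534136 to 76812891, minus strand, 347 exons in the canonical transcript). Its lowest, median and highest levels were 894, 1022 and 1118 CPM in control, 942, 1067 and 1314 at 1 Hz, 992, 1069 and 1314 at 4 Hz and 835, 1174 and 1457 at 10 Hz. The ranges overlapped in every comparison, and 5 of the 6 libraries at 10 Hz lay above every control library while replicate 1 was the lowest of all 24. The log2 fold changes were 0.06 ± 0.10 at 1 Hz, 0.11 ± 0.10 at 4 Hz and 0.19 ± 0.10 at 10 Hz (edgeR adjusted p = 0.655, 0.416 and 0.302). Neb, also on chromosome 2 (52026659 to 52268486, minus strand, 165 exons), was at 459, 522 and 546 CPM in control, 499, 612 and 704 at 1 Hz, 535, 591 and 787 at 4 Hz and 372, 490.4 and 607 at 10 Hz. Here 5 of the 6 libraries at 1 Hz and 4 of 6 at 4 Hz lay above every control library, and replicate 1 at 10 Hz was the lowest of all 24. Its log2 fold changes of 0.27 ± 0.11 and 0.26 ± 0.11 missed the p limit narrowly (edgeR adjusted p = 0.0502 and 0.0574), and that at 10 Hz was -0.03 ± 0.11. With a transcript length correction the first 2 were 0.15 and 0.24 (edgeR adjusted p = 0.114 and 0.0114). The 4 Hz value then passed the p limit but not the fold limit. Over all genes at 4 Hz the median was 0.19 for transcripts under 1 kb and -0.02 over 8 kb, beside 0.02 and 0.10 at 1 Hz. Nebl ranged from 0.0987 to 1.89 CPM over the 24 libraries and was not tested.

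Of the thick filament and M-band genes, all 7 tested were called at 1 Hz. At 4 Hz 6 of 7 were called, and at 10 Hz 1 of 7. All 7 were called lower at 10 Hz than at 1 Hz, by 0.50 to 0.76 on the log2 scale, 1 of them without overlap. With the transcript length correction Mybpc2, Myom1 and Myom2 missed the fold limit there, at -0.484, -0.498 and -0.483. With the small RNA covariate 0 members were called lower there, beside 1.84% of all genes called in either direction. Mybph, counted at 412, 532 and 648 CPM in control, 1102, 1240.2 and 1498 at 1 Hz, 1138, 1249.6 and 1754 at 4 Hz and 448, 849 and 1361 at 10 Hz (lowest, median and highest of 6), separated fully from control at 1 Hz and 4 Hz, and at 10 Hz 4 of 6 libraries lay above the control range. Its log2 fold changes were 1.26 ± 0.18, 1.35 ± 0.18 and 0.70 ± 0.18 at 1, 4 and 10 Hz (edgeR adjusted p = 1.27e-05, 2.81e-06 and 0.0194). Its gene overlaps Adora1, which was at 10.4 CPM, and whether counting used the strand is not given.

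The myosin binding proteins C regulate how myosin heads reach actin, and Mybpc1, Mybpc2 and Mybpc3 are the slow, fast and cardiac forms. Mybpc1 was at 103, 124 and 148 CPM in control, 205, 268 and 278 at 1 Hz, 203, 295 and 332 at 4 Hz and 101, 162 and 226 at 10 Hz, with no overlap of 1 Hz or 4 Hz and control and with 4 of 6 libraries at 10 Hz above control. It rose by 1.01 ± 0.14 at 1 Hz and 1.17 ± 0.14 at 4 Hz on the log2 scale (edgeR adjusted p = 1.32e-05 and 1.14e-06), and its 10 Hz value of 0.37 ± 0.14 did not pass (adjusted p = 0.126). Mybpc2 was at 38.0, 41.9 and 53.6 CPM in control, 56.2, 61.5 and 71.7 at 1 Hz, 41.9, 61.8 and 72.1 at 4 Hz and 40.3, 44.1 and 49.1 at 10 Hz. It separated from control at 1 Hz, with a log2 fold change of 0.54 ± 0.11 (edgeR adjusted p = 0.000445), while at 4 Hz the value of 0.47 ± 0.11 passed the p limit (0.00115) but not the fold limit. Mybpc3 ranged from 0 to 1.66 CPM. Mybpc1 took 76.3% ± 5.47 of the summed TPM of the 3 genes in control and 82.7% ± 1.93 at 4 Hz, a difference that did not pass (exact permutation p = 0.0216, adjusted p = 0.0752 over 66 shares).

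The myomesins bridge neighboring thick filaments at the M-band, and Obsl1 binds them and titin there. Myom2, the most abundant of the 3, was at 394, 448 and 528 CPM in control, 655, 787 and 906 at 1 Hz, 653, 773 and 935 at 4 Hz and 461, 501 and 684 at 10 Hz, and no library at 1 Hz or 4 Hz overlapped the control range. The log2 fold changes were 0.77 ± 0.11 and 0.74 ± 0.11 (edgeR adjusted p = 1.15e-05 and 8.49e-06), against 0.19 ± 0.11 at 10 Hz (adjusted p = 0.308). Myom1 was at 33.9, 38.4 and 50.4 CPM in control, 59.9, 75.1 and 88.2 at 1 Hz, 57.2, 74.3 and 93.7 at 4 Hz and 41.4, 48.6 and 63.9 at 10 Hz and likewise did not overlap control at 1 Hz or 4 Hz, with log2 fold changes of 0.92 ± 0.12 and 0.92 ± 0.12. Per length its levels did overlap, at 17.3 ± 3.55 TPM in control, 24.7 ± 3.30 at 1 Hz and 22.7 ± 4.19 at 4 Hz, and by limma on log2(TPM + 1) none of the 3 myomesins passed both limits at 4 Hz. Myom1 shares 1244 bases with Myl12a on the other strand, a gene at 527 CPM. Myom3 was at 49.2, 63.4 and 76.7 CPM in control, 98.4, 103 and 129.6 at 1 Hz, 87.3, 94.8 and 124 at 4 Hz and 49.8, 57.6 and 99.6 at 10 Hz, rose by 0.81 ± 0.15 and 0.67 ± 0.15 on the log2 scale with no overlap, and at 10 Hz its median lay below that of control (0.06 ± 0.15 by edgeR). Obsl1, at 54.2, 61.0 and 92.0 CPM in control, 95.8, 109.9 and 172 at 1 Hz, 89.3, 109.5 and 172 at 4 Hz and 49.0, 81.4 and 108 at 10 Hz, rose by 0.89 ± 0.19 at 1 Hz and 0.79 ± 0.19 at 4 Hz, where 4 of 6 libraries lay above control. The proportions of the 3 myomesins were also compared. Myom2 took 79.9% ± 1.52 of the family TPM in control, 80.3% ± 1.70 at 1 Hz, 80.0% ± 1.68 at 4 Hz and 79.2% ± 1.57 at 10 Hz, none past the test (lowest exact permutation p 0.481).

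**Figure D3:**
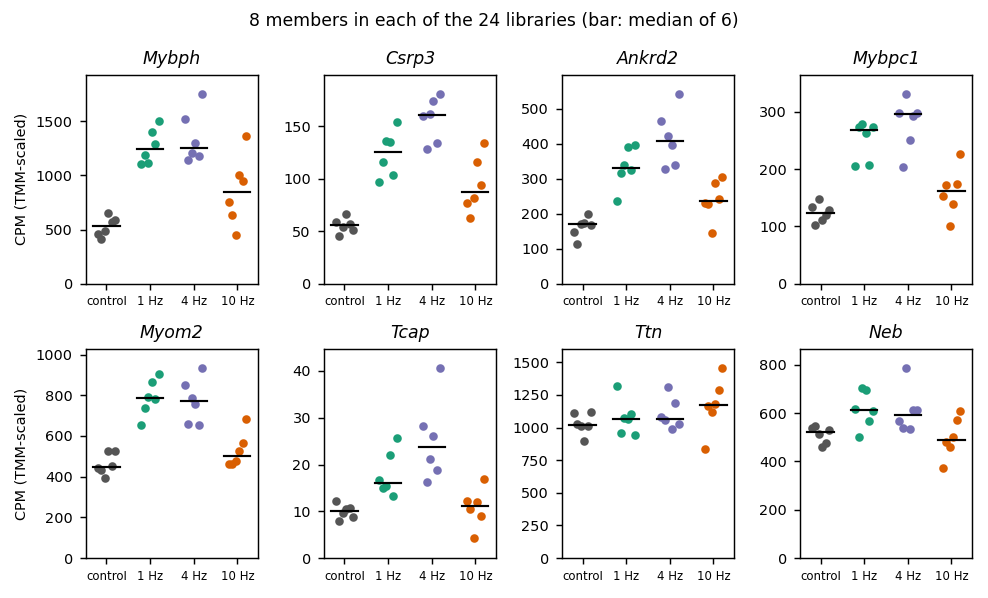
CPM of 8 members in each of the 24 libraries, with a bar at the median of the 6 libraries of a condition and the vertical axis from 0. Mybph, Csrp3, Ankrd2, Mybpc1, Myom2 and Tcap show 1 Hz and 4 Hz points wholly above the control points and widely spread 10 Hz points, whereas the points of Ttn and Neb overlap in all conditions.

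Among the Z-disc genes, 8 of 14 tested were called at 1 Hz, 10 at 4 Hz and 3 at 10 Hz. Csrp3, the muscle LIM protein whose window is printed above with a MEF2 match, was at 46.0, 55.8 and 66.7 CPM in control, 97.3, 125 and 154 at 1 Hz, 128, 161 and 181 at 4 Hz and 62.3, 87.8 and 134 at 10 Hz. Every 1 Hz and 4 Hz library lay above every control library, as did 5 of 6 at 10 Hz. The log2 fold changes were 1.15 ± 0.15, 1.49 ± 0.15 and 0.75 ± 0.15 (edgeR adjusted p = 5.12e-06, 1.01e-07 and 0.00346). Ankrd2, a muscle ankyrin repeat protein that binds titin and is induced by stretch, was at 114, 170.2 and 199.8 CPM in control, 235, 331 and 396 at 1 Hz, 329, 408 and 543 at 4 Hz and 145, 237 and 306 at 10 Hz, again fully separated at 1 Hz and 4 Hz and with 5 of 6 libraries above control at 10 Hz. It rose by 1.04 ± 0.16, 1.35 ± 0.16 and 0.56 ± 0.16 on the log2 scale (edgeR adjusted p = 2.73e-05, 6.44e-07 and 0.0343). Its relative Ankrd23, at 95.2, 111 and 137 CPM in control, 158, 177 and 192 at 1 Hz, 178, 195 and 216 at 4 Hz and 84.2, 141 and 187 at 10 Hz, rose by 0.64 ± 0.15 and 0.80 ± 0.15 with no overlap, and 3 of its 10 Hz libraries lay above control (0.28 ± 0.15, edgeR adjusted p = 0.294). Tcap (telethonin), which caps the Z-disc end of titin, was at 7.88, 10.1 and 12.1 CPM in control, 13.3, 16.1 and 25.7 at 1 Hz, 16.4, 23.7 and 40.7 at 4 Hz and 4.28, 11.2 and 17.0 at 10 Hz. It separated at both lower frequencies, by 0.87 ± 0.24 and 1.35 ± 0.24, but not at 10 Hz (0.13 ± 0.25, edgeR adjusted p = 0.829), where replicate 3 was the lowest of all 24 libraries.

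Myot (myotilin, which crosslinks actin at the Z-disc) was at 26.5, 31.4 and 33.3 CPM in control, 52.6, 64.2 and 81.4 at 1 Hz, 68.6, 81.7 and 90.5 at 4 Hz and 26.1, 38.0 and 68.5 at 10 Hz, without overlap at 1 Hz and 4 Hz. It rose by 1.07 ± 0.17 and 1.41 ± 0.17 on the log2 scale, and its 10 Hz value of 0.56 ± 0.18 missed the p limit (edgeR adjusted p = 0.061). Of the myozenins, Myoz2 (calsarcin-1, the slow and cardiac form) took 95.4% ± 1.51 of the family TPM in control. It was at 62.2, 82.4 and 85.2 CPM in control, 111, 123 and 140.2 at 1 Hz, 127, 153 and 158 at 4 Hz and 84.5, 97.4 and 133 at 10 Hz and rose by 0.70 ± 0.10 and 0.95 ± 0.10, with no overlap, while 0.39 ± 0.10 at 10 Hz passed the p limit alone (edgeR adjusted p = 0.0247). Myoz1, the fast form, was at 2.35, 3.88 and 6.81 CPM in control, 3.67, 4.25 and 5.20 at 1 Hz, 4.99, 5.46 and 6.84 at 4 Hz and 4.25, 4.96 and 6.55 at 10 Hz, overlapped control in every condition and was not called (edgeR adjusted p = 0.894, 0.0611 and 0.447). Myoz3 ranged from 0 to 0.678 CPM. Ldb3 (ZASP), which binds actinin through its PDZ domain, rose by 0.63 ± 0.12 and 0.68 ± 0.12 without overlap, and Synpo2 (myopodin) was called at 4 Hz (0.55 ± 0.12) but not at 1 Hz (0.45 ± 0.12). Synpo2l, Flnc (filamin C) and Pdlim7 were not called against control at any frequency, with log2 fold changes of 0.01 to 0.35. Synpo2l and Myoz1 lie 1352 bases apart on the same strand of chromosome 14, and both were among the members not called.

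Of the PDZ and LIM domain proteins, Pdlim3 and Pdlim7 changed in their share of the family at 1 Hz and 4 Hz, and Pdlim5 did not pass at any frequency. Pdlim3 was at 79.5, 88.4 and 109 CPM in control, 140.3, 148 and 161 at 1 Hz, 147, 174 and 202 at 4 Hz and 106, 123 and 176 at 10 Hz. It separated from control at 1 Hz and 4 Hz, with log2 fold changes of 0.71 ± 0.11 and 0.94 ± 0.11, and was called at 10 Hz at 0.51 ± 0.11 (edgeR adjusted p = 0.00637), with 5 of 6 libraries above control. Pdlim5 was called at 4 Hz only (0.51 ± 0.10, against 0.31 ± 0.10 at 1 Hz, and the 4 Hz to 1 Hz difference of 0.20 ± 0.10 did not pass, edgeR adjusted p = 0.217). As a share of the summed TPM of the 3 genes, Pdlim3 took 22.8% ± 1.68 in control, 31.2% ± 1.47 at 1 Hz and 30.8% ± 1.95 at 4 Hz. Pdlim7 took 44.1% ± 2.45 in control, 32.7% ± 4.62 at 1 Hz and 30.5% ± 4.28 at 4 Hz. Control and stimulated libraries did not overlap in these 4 comparisons (exact permutation p = 0.00216, adjusted p = 0.0143 over the 66 shares). As shares of CPM the differences had the same sign and passed as well, with overlap in all but Pdlim3 at 1 Hz. The mean CPM of Pdlim7 itself was not lower, at 125.4 ± 10.0 in control, 126.2 ± 21.5 at 1 Hz and 136.9 ± 20.5 at 4 Hz. Its mean TPM was 183.2 ± 17.1, 159.1 ± 26.9 and 159.5 ± 23.9 in the same order.

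The Xin proteins bind actin at sites of membrane attachment and repair. Xirp1 was at 168, 191 and 244 CPM in control, 207, 254 and 315 at 1 Hz, 179.9, 211 and 245 at 4 Hz and 161, 227 and 241 at 10 Hz and Xirp2 at 21.4, 30.0 and 38.1 CPM in control, 31.1, 37.3 and 46.1 at 1 Hz, 28.8, 34.1 and 46.7 at 4 Hz and 22, 30.8 and 35.5 at 10 Hz. Both overlapped control at every frequency, although 5 of 6 libraries of Xirp1 at 1 Hz lay above control. Their log2 fold changes at 1 Hz, 0.36 ± 0.11 and 0.41 ± 0.14, passed the p limit without the fold limit (edgeR adjusted p = 0.012 and 0.0281), as did Flnc, their binding partner, at 0.35 ± 0.11 (adjusted p = 0.0156). At 4 Hz the 3 values were 0.08 ± 0.11, 0.29 ± 0.14 and 0.13 ± 0.11, none past the p limit.

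Leiomodins nucleate and lengthen thin filaments, tropomodulins cap their pointed ends, and the kelch proteins Klhl40 and Klhl41 stabilize nebulin and leiomodin. Of these 6 genes 3 were called at 1 Hz, 4 at 4 Hz and 0 at 10 Hz. Tmod4, the skeletal tropomodulin, was low, at 0.671, 1.57 and 2.84 CPM in control, 2.17, 2.95 and 4.23 at 1 Hz, 4.46, 5.69 and 7.01 at 4 Hz and 2.09, 2.88 and 5.60 at 10 Hz, and rose by 0.83 ± 0.30 at 1 Hz and 1.80 ± 0.28 at 4 Hz (edgeR adjusted p = 0.0296 and 2.1e-05). Its 4 Hz libraries overlapped neither control nor 1 Hz, while 3 of 6 libraries at 1 Hz lay above control. At 10 Hz the log2 fold change was 0.92 ± 0.29, which missed the p limit (adjusted p = 0.0626). Tmod1, the main form here, rose by 0.50 ± 0.10 and 0.63 ± 0.10 without overlap, and its share of the TPM of the pair was 94.3% ± 3.22 in control and 89.3% ± 1.05 at 4 Hz (exact permutation p = 0.00216, adjusted p = 0.0143). Klhl41 rose by 0.72 ± 0.13 and 0.84 ± 0.13, whereas Klhl40 at 0.45 ± 0.15 and 0.48 ± 0.15 passed the p limit alone. Lmod3 was called at 4 Hz (0.62 ± 0.15). Lmod2 stayed under the fold limit at 1 Hz and 4 Hz (0.32 ± 0.11 and 0.28 ± 0.11), and its share of the leiomodin TPM was 72.1% ± 2.68 in control, 67.0% ± 1.47 at 4 Hz and 65.1% ± 2.17 at 10 Hz (exact permutation test, adjusted p = 0.033 and 0.026).

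Unc45b, a chaperone that folds myosin heads, and Smyd1, a methyltransferase that works with it in thick filament assembly, were both called at 1 Hz and 4 Hz. Unc45b was at 25.7, 32.9 and 36.8 CPM in control, 51.1, 57.1 and 76.9 at 1 Hz, 49.5, 56.1 and 77.3 at 4 Hz and 34.9, 37.8 and 62.2 at 10 Hz and rose by 0.90 ± 0.14 and 0.87 ± 0.14 on the log2 scale, and Smyd1 rose by 0.63 ± 0.10 and 0.80 ± 0.10, each without overlap with control. Neither was called at 10 Hz (0.35 ± 0.14 and 0.29 ± 0.10, edgeR adjusted p = 0.152 and 0.0832). Unc45b overlaps Nle1 (24.4 CPM) and Smyd1 overlaps Krcc1 (49.9 CPM) in the annotation.

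The tropomyosin genes shifted in proportion, as totals per gene in which the transcripts of a gene were not separated. Tpm2 (beta tropomyosin) was at 971, 1159 and 1201 CPM in control, 1463, 1738 and 2152 at 1 Hz, 1588, 1963 and 2426 at 4 Hz and 1041, 1308 and 1587 at 10 Hz. It separated from control at 1 Hz and 4 Hz, with log2 fold changes of 0.64 ± 0.11 and 0.81 ± 0.11 (edgeR adjusted p = 7.55e-05 and 3.08e-06). Tpm1 (alpha) was at 981, 1058 and 1097 CPM in control, 1192, 1326 and 1470.0 at 1 Hz, 1304, 1452 and 1664 at 4 Hz and 919, 1116 and 1178 at 10 Hz. Tpm3 (the gene of the slow form) was at 239.8, 274 and 297 CPM in control, 325, 351 and 379.7 at 1 Hz, 312, 366 and 395 at 4 Hz and 286, 294 and 334 at 10 Hz. Both also separated at 1 Hz and 4 Hz, but by 0.33 ± 0.08 and 0.47 ± 0.08 for Tpm1 and by 0.37 ± 0.07 and 0.40 ± 0.07 for Tpm3, below the fold limit. Of the summed TPM of the 3 genes, Tpm1 took 51.5% ± 1.15 in control, 45.6% ± 2.65 at 1 Hz, 45.6% ± 1.89 at 4 Hz and 48.5% ± 1.11 at 10 Hz, with no overlap with control at any frequency (exact permutation p = 0.00216 and adjusted p = 0.0143 each). Tpm2 took 37.9% ± 0.776 in control and 44.1% ± 3.58, 44.9% ± 1.91 and 40.3% ± 1.58 at 1, 4 and 10 Hz (exact permutation test, adjusted p = 0.0143, 0.0143 and 0.033). The share of Tpm1 was thus lower in each 10 Hz library than in each control library, although no member's level separated at 10 Hz. Taken as shares of CPM in place of TPM, these differences kept their sign and passed as well. No TPM share of the myomesins, myosin binding proteins, myozenins, Xin proteins, kelch proteins, ankyrin repeat pair, nebulin pair or synaptopodin pair passed at any frequency, whereas as shares of CPM those of Myoz1 and Myoz2 passed at 1 Hz and those of Mybpc1, Mybpc2, Myoz1 and Ankrd2 at 4 Hz, as did Tpm3 at 4 Hz.

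**Figure D4:**
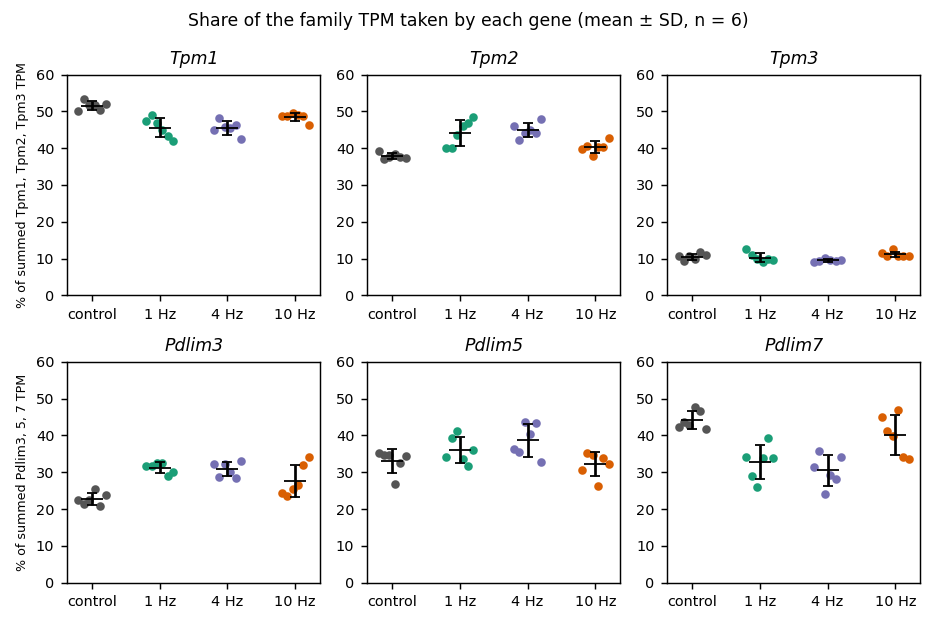
Percent of the summed TPM of a gene family taken by Tpm1, Tpm2 and Tpm3 (top) and by Pdlim3, Pdlim5 and Pdlim7 (bottom) in each library (points), with the mean and SD of 6 libraries (bars). Tpm1 falls from 51.5% in control to 45.6% at 4 Hz as Tpm2 goes from 37.9% to 44.9%, and Pdlim7 from 44.1% to 30.5% as Pdlim3 goes from 22.8% to 30.8%.

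Counts and TPM of a gene differ by the effective length that was estimated from its mixture of transcripts, so their ratio, log2 of count per TPM centered on the median gene of each library, gives that length relative to other genes. This measure was chosen after the data were seen and was computed for 34 members and 10033 genes with at least 20 counts in every library. Ttn was higher by 0.23 at 4 Hz, with no overlap with control, while its count differed by 0.11 and its TPM was 37.6 ± 3.88 against 45.9 ± 2.15 in control. Myom2 at 4 Hz (0.18) and Pdlim7 at 1 Hz (0.16) were also wholly above control, and Myoz2 and Tpm2 at 4 Hz (-0.07 and -0.07) wholly below it. Among the 10033 genes, 0.618% lay wholly above and 0.538% wholly below control at 4 Hz, and 0.498% above and 0.359% below at 1 Hz. At 10 Hz no member lay wholly outside control, beside 0.199% of genes above and 0.0797% below. Each of the 5 had the smallest exact permutation p, 0.00216, but none passed when adjusted over all 10033 genes (adjusted p = 0.187 at 4 Hz and 0.253 at 1 Hz), so these are given as a description. Myom1 differed by 0.33 at 1 Hz and 0.34 at 4 Hz, with overlap.

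At 10 Hz the libraries of the condition lay far apart. Mybph, Csrp3, Ankrd2 and Pdlim3 were called against control, by 0.51 to 0.75, and 17 members had an unadjusted p under 0.05 by edgeR. The median of the 36 log2 ratios to control was 0.11, 0.09, -0.05, 0.25, 0.41 and 0.64 in replicates 1 to 6, so that replicate 6 lay within the 1 Hz and 4 Hz range and replicates 1, 2 and 3 within the control range. The share of all counts in the 39 members was 0.925%, 0.923%, 0.843%, 1.07%, 1.07% and 1.25% in the same order, beside 0.847% to 0.952% in control, and the small RNA list stood at 179, 273, 111, 81.7, 67.9 and 38.4 CPM. Without replicate 6, or without control replicate 2, 1 member was called at 10 Hz, and without replicate 3, 7 were. Without replicates 1 and 2, whose small RNA exceeded every control library (a choice made after the data were seen), 6 were.

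**Figure D5:**
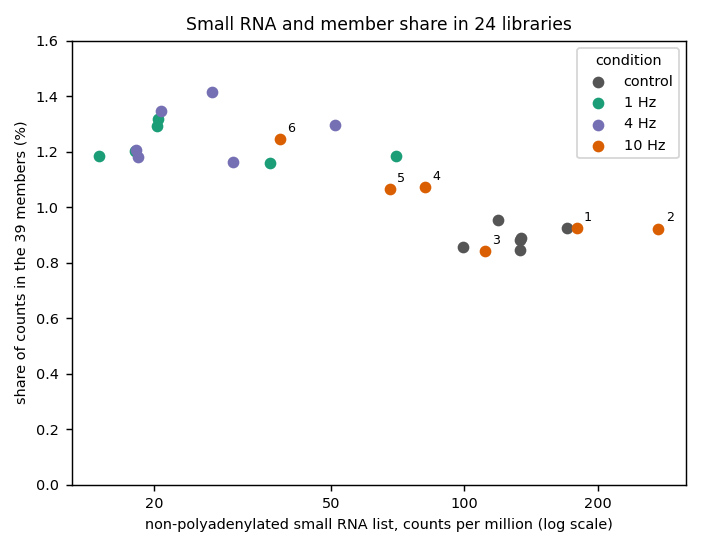
Share of all counts in the 39 members (percent, vertical axis from 0) against CPM of the non-polyadenylated small RNA list (log axis) in the 24 libraries, colored by condition, with the 10 Hz replicates numbered. The 1 Hz and 4 Hz libraries lie at low small RNA and 1.16% to 1.42% member share, the control libraries at high small RNA and 0.847% to 0.952%, and the 10 Hz libraries between and beyond them.

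The frequencies were also compared with each other. From 1 Hz to 4 Hz, 1 member was called, Tmod4, which rose by 0.97 ± 0.25 with no overlap (edgeR adjusted p = 0.0136, against 1.59% of genes called higher). None was called lower by edgeR, DESeq2 or limma on log2(TPM + 1), beside 1.4% of genes by edgeR. At an unadjusted p under 0.05, 8 were higher and 1 lower by edgeR, 9 and 1 by DESeq2, and 2 and 4 by limma. The next differences were in Tcap (0.48 ± 0.22), Myoz1 (0.39 ± 0.18), Csrp3 (0.34 ± 0.14) and Myot (0.34 ± 0.16), none past the p limit. By limma on log2(TPM + 1), 10 of the 36 members had the opposite sign in this comparison, Myoz1 among them. From 1 Hz to 10 Hz, 10 members fell (against 8.49% of genes): the 7 of the thick filament and M-band, by 0.50 (Mybpc2) to 0.76 (Myom3), with Myot, Tcap and Unc45b. From 4 Hz to 10 Hz, 17 fell (against 5.64%), led by Tcap, which fell by 1.22, Tmod4 by 0.87 and Myot by 0.85. All libraries at 10 Hz lay below all at 1 Hz for 2 members (against 7.49% of genes) and below all at 4 Hz for 7 (against 3.54%). On adjusted p alone 25 and 24 were lower, against 18.5% and 11.9%. No member was called higher at 10 Hz than at 1 Hz or 4 Hz by edgeR, beside 9.45% and 5.32% of genes (0 at an unadjusted p under 0.05 by edgeR and DESeq2, and 1 by limma on TPM against 4 Hz). Without 10 Hz replicates 1 and 2 the falls called were 4 against 1 Hz and 7 against 4 Hz, beside 13.5% and 5.82% of all genes called in either direction. With the small RNA covariate they were 0 and 0, beside 1.84% and 0% of all genes in either direction. In that fit 8 and 13 members were lower at an unadjusted p under 0.05.

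The other genes of the sarcomere (44 myosins, actins, troponins, actinins and associated genes, of which 42 were tested) were set beside the members. At 1 Hz 10 were called higher and 0 lower, beside 9.34% and 8.99% of all tested genes (median log2 fold change 0.21). At 4 Hz 10 were called higher and 1 lower, beside 10.5% and 9.61% (median 0.27). At 10 Hz 2 were called higher and 0 lower, beside 1.24% and 0.623% (median 0.08). On adjusted p alone 18 were higher and 4 lower at 1 Hz, 20 and 2 at 4 Hz, and 2 and 0 at 10 Hz. Of all tested genes 18.1%, 19.2% and 2.67% were higher on that limit, and 35.4%, 39.4% and 4.89% passed it in either direction. Their summed level overlapped control at each frequency. It was 8732 to 10245 CPM in control, 9492 to 10415 at 1 Hz, 9657 to 10785 at 4 Hz and 9110 to 10256 at 10 Hz. The largest at 1 Hz were Actn2 (alpha-actinin 2, which crosslinks actin at the Z-disc) at 1.16 ± 0.17, Myo18b at 1.09 ± 0.17 and Mlip at 1.08 ± 0.21. At 4 Hz they were Mlip at 1.40 ± 0.20, Actn2 at 1.23 ± 0.17 and Smpx at 1.15 ± 0.18, and at 10 Hz Mlip at 0.76 ± 0.21 and Trim55, a titin-associated ubiquitin ligase of the M-band, at 0.65 ± 0.10. The 1 called lower, at 4 Hz, was Bag3 (named after its value was seen), a chaperone of filamin, at -0.59 ± 0.09.

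Markers of fused muscle were higher where the members were. Of 14 (among them Acta1, Mylpf, Myh3 and Atp2a1), 11 were called higher at 1 Hz, 12 at 4 Hz and 3 at 10 Hz, beside 9.34%, 10.5% and 1.24% of all tested genes. Their summed level was 8481 to 11093 CPM in control, 12707 to 17336 at 1 Hz, 12891 to 19735 at 4 Hz and 8793 to 14109 at 10 Hz. Ckm, Des and Myog at 1 Hz and Ckm and Des at 4 Hz did not pass both limits. Of 9 genes of unfused or proliferating cells, 1 was called higher at 1 Hz (Pax7), 4 higher (Pax7, Mki67, Top2a, Ccna2) and 1 lower (Myf5) at 4 Hz and 0 at 10 Hz. Beside them stand the same shares of all tested genes called higher, and 8.99%, 9.61% and 0.623% called lower at 1, 4 and 10 Hz. The sum of the 9 was 94.6 to 138 CPM in control, 90.0 to 123 at 1 Hz, 85.1 to 124 at 4 Hz and 91.9 to 113 at 10 Hz. Of genes of other lineages, Nppa was at 0 in every library, and Ryr2 and Tnni3 (cardiac), Myh11 and Cnn1 (smooth muscle), 4 of 6 adipocyte and 4 of 5 osteogenic genes lay under 1 CPM. The other 4 cardiac genes (Nppb, Myh6, Nkx2-5 and Tnnt2) and the other 4 smooth muscle genes (Acta2, Tagln, Smtn and Lmod1) lay above it. The sums of these 4 lists in control, 1 Hz, 4 Hz and 10 Hz libraries were 658 to 910.5, 1073 to 1418, 1215 to 1589 and 887 to 1338 CPM for the cardiac list, 346 to 532, 546 to 777, 496 to 794 and 329.5 to 625 for smooth muscle, 25.9 to 30.6, 33.6 to 47.9, 33.5 to 42.9 and 23.1 to 39.4 for adipocytes, and 30.5 to 44.9, 40.6 to 56.4, 33.6 to 52.4 and 26.3 to 44.1 for bone. Between control and stimulated libraries, Acta2 and Tagln rose at 1 Hz and 4 Hz, as did Myh6, Tnnt2 and Cebpa, while Nppb (1 Hz) and Smtn (4 Hz and 10 Hz) fell and Runx2 rose at 1 Hz. The part of the fiber content of the sheets in the members' differences was not tested.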

How the data were processed

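RNA of 24 muscle sheets was sequenced as 50-base paired-end libraries after poly(A) selection or, for low-input samples that the labels do not name, ribosomal RNA depletion. Per the labels and the study's methods, the authors quantified genes with salmon in the nf-core/rnaseq pipeline (version 3.11.1) on GRCm39 and deposited estimated counts and TPM per gene and library, without pooling. The submitters' processing notes also name BWA 0.7.12-r1039, bedtools 2.25.0, STAR and the builds mm10 and hg19. The sources used here name neither the strand setting of the counting nor the annotation release. As tested input, the deposited estimated counts (expected counts) were rounded to whole numbers, and the deposited TPM were used as they stand.

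Groups came from the sample titles. The members and gene lists were chosen with earlier results of these data known. Genes were filtered with filterByExpr (13318 of 56941 kept, 99.8% of counts), scaled by TMM and tested with edgeR 4.0.16 (R 4.3.3) in 1 quasi-likelihood fit of the 24 libraries, with Benjamini-Hochberg adjustment over all tested genes. CPM in the text are TMM-scaled, except those of marker lists, overlapping genes and the small RNA list, which are scaled to the raw total of a library. The standard error of a log2 fold change was derived from the F statistic. Shares within gene families and count per TPM were compared by 2-sided exact permutation tests over libraries (6 against 6 allows no p below 0.00216). Every member could be named. Lowest, median and highest values were fixed for members called that are among the 8 largest fold changes of a comparison with control, and by role for Ttn, Neb, the myomesins, myosin binding proteins C, myozenins, Tcap, Csrp3, Ankrd2, Ankrd23, the Xin proteins and the tropomyosins. Of the other sarcomere genes the 3 largest changes among those called were named. Python 3.11.15 with numpy 2.4.6, pandas 2.3.3 and matplotlib 3.10.9 served for the rest. Tested on simulated counts for 1 Hz against control (13318 genes, 200 changed 2-fold), edgeR recovered 96.5% of changed genes with 4.46% false calls, and DESeq2 97.5% with 4.41%. Alternatives were DESeq2 1.42.0, limma 3.58.1 on log2(TPM + 1) and log2(TPM + 0.1), other scalings and filters, a replicate block, a small RNA covariate, a transcript length correction and leaving out libraries. Depth of 4.09 to 15.2 M counts limits members under about 1 CPM to a few counts per library. Upstream windows were read from GRCm39 at GENCODE M39 starts.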

Additional observations from a re-analysis of the deposited data

Results flagged for a closer look

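For each tested member and condition, the gap between the most extreme library and its neighbor was compared with the range of the 6 libraries on the scale of log2(CPM + 0.5), by Dixon's criterion. Of 144 groups 5 passed it, and chance alone flags about 1 group in 20. Control replicate 2 was lowest for Tpm2 at 971 CPM, beside 1146 in the next library. At 4 Hz, replicate 3 was highest for Neb at 787 CPM, beside 615. Replicate 2 at 4 Hz was lowest for Myoz2 at 127 CPM, beside 151. At 10 Hz, replicate 4 was highest for Tmod4 at 5.60 CPM, beside 3.07, and replicate 6 was highest for Unc45b at 62.2 CPM, beside 41.1.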

How the results depend on the processing

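No result changed sign where it had been called. At 1 Hz and 4 Hz the number of members called (21 and 23) stayed within 1.5 times under each scaling, filter, test and library left out except the small RNA covariate, which gave 0 and 9. Leaving out 1 library gave 20 to 22 calls at 1 Hz, 22 to 25 at 4 Hz, 1 to 7 at 10 Hz, 1 for 4 Hz against 1 Hz, 6 (without 1 Hz replicate 6) to 14 for 10 Hz against 1 Hz and 12 to 19 for 10 Hz against 4 Hz. The 4 calls at 10 Hz became 2 with limma on log2(TPM + 1) or log2(TPM + 0.1), of which 1 was among the 4, 1 with limma on log2(TPM + 1) and no filter, 2 with the 12 compared libraries alone, 2 with the small RNA covariate and 2 with the transcript length correction, but 6 with DESeq2, 6 without the filter on low counts and 6 without 10 Hz replicates 1 and 2. The single call of 4 Hz against 1 Hz became 0 at a minimum mean of 5 CPM, since Tmod4 lies below it. The 10 calls of 10 Hz against 1 Hz became 25 on adjusted p alone, 0 with the covariate and 4 without 10 Hz replicates 1 and 2. With the transcript length correction they became 8, of which 6 were among the 10. The 17 of 10 Hz against 4 Hz became 10 with total count scaling, 10 with limma on log2(TPM + 1), 10 on log2(TPM + 0.1), 10 on log2(TPM + 1) without the filter, 0 with the covariate and 7 without 10 Hz replicates 1 and 2. The 6 shares past the test at 4 Hz became 11 with CPM in place of TPM. Over all genes the covariate left 1, 249 and 204 calls at 1, 4 and 10 Hz against control, from 2441, 2676 and 248. For 10 Hz against 1 Hz and 4 Hz it left 245 and 0, from 2390 and 1460. The causes were not tested.

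Of single-gene values, 625 kept their side of the limits and 81 lost a call under other settings. With 1 library left out, 618 kept it and 30 lost a call. The setting of adjusted p alone cannot lose a call. No call reversed, but for values that were not called these counts do not track the sign. By limma on log2(TPM + 1), Ttn turned negative at 1, 4 and 10 Hz and Neb at 4 Hz. With the transcript length correction Neb turned positive at 10 Hz. Same-numbered libraries of different conditions correlated by 0.05 on average in their deviations from the condition mean (36 pairs, -0.18 to 0.36, 10 above 0.1). Different-numbered libraries correlated by -0.01 (180 pairs, -0.32 to 0.36, 49 above 0.1). Of 24 libraries, 10 correlated best with their own number. These values do not settle whether the numbers pair the sheets, and the main fit took no pairing. The fit with the replicate number as a block gave 21, 23 and 4 calls against control and 1, 9 and 18 between frequencies. Its lowest edgeR adjusted p of a member was 4.49e-07, 1.60e-08 and 0.000643 at 1, 4 and 10 Hz against control. Without the block it was 5.12e-06, 1.01e-07 and 0.00346. Depth leaves Nebl, Mybpc3 and Myoz3 without a test and Tmod4 and Myoz1 with few counts.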
